A study of Mus musculus with 2 samples.

Results

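Hepcidin-rich spots are the liver spots with the highest share of hepcidin RNA in 2 spatial transcriptomics (ST) sections of mouse liver. In each library the unique molecular identifiers (UMIs) of Hamp and Hamp2 were summed in every spot and divided by the UMIs of that spot, and the 10% of spots with the highest quotient were taken. This gave 214 of 2140 spots in the AEG-1DMAC section and 254 of 2540 spots in the AEG-1fl/fl section, 468 of 4680 spots in all. The spots were selected on Hamp and Hamp2, so the levels of these 2 genes in them are a description of the choice. Each spot covers more than one cell, often of different kinds, so more cells that express a gene and more RNA per cell cannot be told apart.

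AEG-1 is the protein of Mtdh. AEG-1DMAC mice carry the floxed gene together with Cre driven from the Lyz2 locus, which removes it in myeloid cells such as macrophages, while AEG-1fl/fl mice carry the floxed gene without Cre, and both lines were on a C57BL/6J background. The livers came from mice of 27 weeks, and the assay was 10x Visium on fixed, paraffin-embedded tissue, with 1 section of each genotype. The labels give a high fat/high sugar diet (HF/HSD) for both mice from week 7, for 20 weeks, whereas the study's text places these sections among its control diet animals, so the diet of the 2 mice is uncertain. Since each genotype had 1 section, no test was run and no p-value is given. The intervals below are 95% intervals that reflect counting error alone and say nothing of the variation among mice or sections. Those of shares of spots treat the spots as independent, although spots of a section are not replicates.

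Hepcidin is a peptide hormone that hepatocytes secrete. It binds ferroportin, the iron exporter encoded by Slc40a1, and causes its removal from the surface of macrophages and gut cells, so that less iron enters the blood. Hepatocytes transcribe Hamp mainly in answer to bone morphogenetic proteins (BMPs) from the sinusoidal endothelium, whose receptors act through SMAD proteins, and in answer to interleukin 6 through STAT3 in inflammation. The mouse has the near-identical neighbour Hamp2, which is not known to control iron in the same way.

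Hamp lies at chr7:30942368-30944032 and Hamp2 at chr7:30922372-30924681, both on the minus strand of mm10, with both annotated as protein coding. The 150 bases before each transcription start are shown because the genes are near-identical and both chose the spots. They are the RefSeq promoters of GRCm38.p6, which has the same coordinates as mm10, and are written from 5′ to 3′ on the minus strand, chr7:30944030-30944179 for Hamp and chr7:30924182-30924331 for Hamp2. Capitals mark matches to GGCGCC, the core of a BMP response element, and to TTCNNNGAA, a form that STAT3 binds.
Hamp: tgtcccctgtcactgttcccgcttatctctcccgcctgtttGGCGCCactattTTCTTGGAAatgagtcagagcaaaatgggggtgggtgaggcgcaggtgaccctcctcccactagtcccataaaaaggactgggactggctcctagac
Hamp2: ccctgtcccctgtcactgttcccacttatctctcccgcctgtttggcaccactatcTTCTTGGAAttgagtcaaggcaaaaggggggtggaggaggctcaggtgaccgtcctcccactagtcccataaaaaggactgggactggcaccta
Over the full windows of 300 bases the promoters were identical at 276 of 303 aligned positions (91.1%). Hamp held 1 match to GGCGCC and Hamp2 held 0, and each held 1 match to TTCNNNGAA. Either motif reads the same on both strands, and the matches do not overlap. Of 32851 RefSeq promoters of this length, 11.9% held GGCGCC and 8.30% held TTCNNNGAA. The RefSeq start of Hamp2 lies inside the gene model given above, so the window depends on the annotation. A match to these letters is a description and does not show that a factor binds.

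In the AEG-1DMAC section the last spot taken had 22 hepcidin UMIs among 19238, which is 1143.57 CPM (counts per 1000000 UMIs), and the first spot not taken had 26 among 22740, or 1143.36 CPM. In the AEG-1fl/fl section the last spot taken had 18 among 30290 (594.256 CPM) and the first not taken 7 among 11782 (594.127 CPM). Hepcidin-rich spots thus stood on a slope and not beyond a gap. The median score was 1258 CPM in hepcidin-rich spots and 631 CPM in the remaining spots of AEG-1DMAC, against 715 and 279 CPM in AEG-1fl/fl. The threshold itself differed between the sections: 1256 AEG-1DMAC spots (58.7%) reached that of AEG-1fl/fl, whereas 15 AEG-1fl/fl spots (0.591%) reached that of AEG-1DMAC. The count behind a single spot was small, with a median of 28 hepcidin UMIs in the hepcidin-rich spots of AEG-1DMAC and 14 in those of AEG-1fl/fl. The highest score of AEG-1DMAC, 8547 CPM, came from a spot with 117 UMIs in all, 1 of them from hepcidin, and the next was 2329 CPM.

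Hamp was measured at 1134 CPM in hepcidin-rich and 549 CPM in remaining AEG-1DMAC spots, and at 658 and 243 CPM in AEG-1fl/fl. Hamp2 was measured at 171 and 79.3 CPM in AEG-1DMAC and at 109 and 48.1 CPM in AEG-1fl/fl. The remaining AEG-1DMAC spots thus came close to the hepcidin-rich spots of AEG-1fl/fl in Hamp. Over all kept spots Hamp was 2.16-fold and Hamp2 1.65-fold higher in AEG-1DMAC than in AEG-1fl/fl (log2 ratios 1.11, interval 1.08 to 1.14, and 0.72, interval 0.65 to 0.79). Every hepcidin-rich spot had a Hamp UMI, while 27 of AEG-1DMAC and 45 of AEG-1fl/fl had no Hamp2 UMI.

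Each gene was then read in spots chosen by the other gene alone, which is a readout that the choice did not use. In AEG-1fl/fl, Hamp2 was at 78.6 CPM in spots chosen by Hamp and 51.4 CPM in the others (log2 ratio 0.61, interval 0.45 to 0.77). In AEG-1DMAC it was at 91.7 and 88.7 CPM (log2 ratio 0.05, interval -0.10 to 0.19). Hamp in spots chosen by Hamp2 had log2 ratios of 0.43 in AEG-1fl/fl (interval 0.36 to 0.50) and 0.15 in AEG-1DMAC (interval 0.10 to 0.21). The 2 genes shared spots more closely in AEG-1fl/fl, and the Pearson correlation of their shares over spots was 0.213 there and 0.0822 in AEG-1DMAC. The AEG-1DMAC correlation includes the spot of 117 UMIs, whose 1 hepcidin UMI was from Hamp, and the effect of that spot was not tested. Whether signal of one gene was counted for its near-identical neighbour was not tested, and the levels of both are uncertain to that extent.

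After the spot filter the AEG-1DMAC library held 45453286 and the AEG-1fl/fl library 50322850 UMIs, of which hepcidin-rich spots held 4812532 and 4823503, so that 10 CPM stood for 48.1 and 48.2 UMIs there. Hepcidin-rich spots had median depths of 21972.5 and 17587.5 UMIs against 20844.5 and 18403.5 in the remaining spots, in the same order of libraries. The libraries shared 1782 spot barcodes, which come from the common barcode set of the capture areas and are not shared spots. Mtdh was at 66.3 CPM in all AEG-1DMAC and 60.2 CPM in all AEG-1fl/fl spots, which does not check the labels because cells outside the myeloid lineage keep the gene, and Lyz2 gave 25 and 41 UMIs in all. The hepatocyte product Alb was at 78749 and 146091 CPM in hepcidin-rich spots.

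Ranked by markers of the lobule's zones, hepcidin-rich spots did not lie in the same part of the order in the 2 sections. Blood enters a lobule at the portal tract, in the periportal zone 1, and leaves at the central vein, in the pericentral zone 3. Spots were ranked in each library by zone 3 markers (Cyp2e1, Cyp1a2, Oat) minus zone 1 markers (Pck1, Hal, Gls2, Cyp2f2, Hsd17b13, Arg1), and the rank, here called the zone index, was divided into 3 equal parts or 10 equal bins. Because the ranks were made within each library, without spot positions, equal bins need not be the same place in the lobule. In the most pericentral bin Cyp2e1 was at 15278 CPM in AEG-1DMAC and 8026 CPM in AEG-1fl/fl. In AEG-1DMAC, 30 hepcidin-rich spots (14.02%, interval 9.66% to 19.4%) lay in the periportal part, 94 (43.9%, 37.2% to 50.9%) in the middle part and 90 (42.1%, 35.4% to 49.0%) in the pericentral part. In AEG-1fl/fl, 132 (52.0%, 45.6% to 58.3%) lay in the periportal part, 80 (31.5%, 25.8% to 37.6%) in the middle part and 42 (16.5%, 12.2% to 21.7%) in the pericentral part. These intervals take each spot as independent and are too narrow where neighbouring spots are alike. The middle part held more hepcidin-rich spots than any other in AEG-1DMAC but not in AEG-1fl/fl, so a midlobular name does not hold for both sections. With an index from other zonated genes the middle part held 47.2% and 36.2%, and the periportal part 13.1% and 49.6%.

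Hamp followed the same split along the 10 bins. In AEG-1DMAC it was 411 CPM in the most periportal bin, 764 CPM in bin 7 and 455 CPM in the most pericentral bin. In AEG-1fl/fl it was highest in the most periportal bin, 361 CPM, and lowest in the most pericentral bin, 144 CPM. The sections therefore differed little in the first bin, where the ratio of AEG-1DMAC to AEG-1fl/fl was 1.14-fold, and most in the last, where it was 3.16-fold. Hamp2 was lower in AEG-1DMAC in the first bin (30.7 against 54.7 CPM, log2 ratio -0.83, interval -1.14 to -0.53) and 2.96-fold higher in bin 9. Igfbp2, an insulin-like growth factor binding protein that the study uses as a midlobular marker, was highest in bin 6 of AEG-1DMAC (1173 CPM) and in bin 7 of AEG-1fl/fl (1149 CPM). Hamp2 was highest in bin 7 of AEG-1DMAC (138 CPM) and in bin 6 of AEG-1fl/fl (64.7 CPM, interval 57.9 to 72.0). The latter interval overlapped that of the first bin of AEG-1fl/fl (48.3 to 61.6 CPM). Igfbp2 and Hamp2 thus had their highest levels near the middle of the index in both sections, whereas Hamp did so in AEG-1DMAC only.

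**Figure D1:**
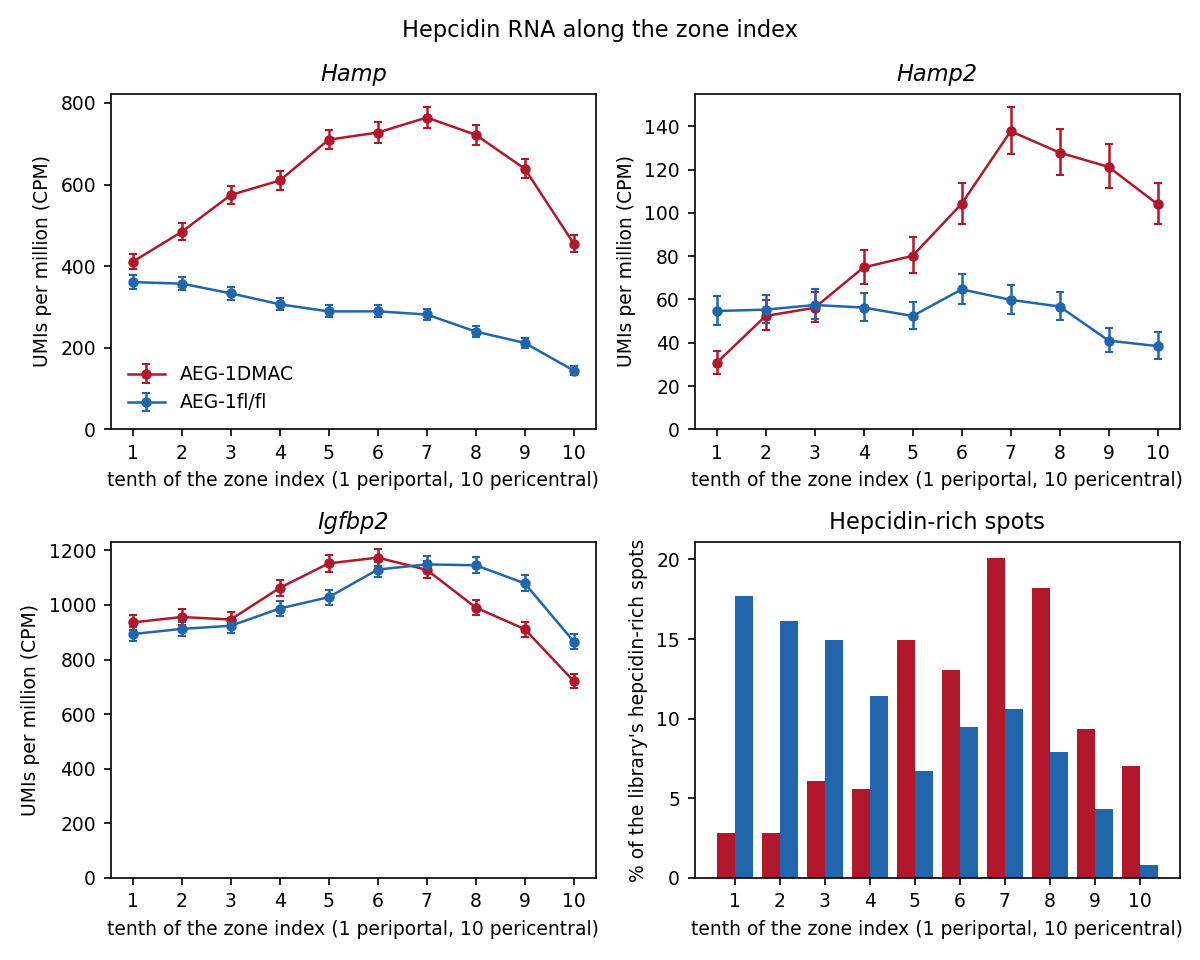
Levels of Hamp, Hamp2 and Igfbp2 (CPM of the summed UMIs, bars are 95% Poisson intervals for counting error) and the percent of hepcidin-rich spots in each of 10 bins of the zone index, for 1 AEG-1DMAC and 1 AEG-1fl/fl section. Hamp reaches 764 CPM in bin 7 of AEG-1DMAC and falls from 361 to 144 CPM across AEG-1fl/fl, and hepcidin-rich spots follow these profiles.

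Igfbp2 was at 1104 CPM in hepcidin-rich and 987 CPM in remaining spots of AEG-1DMAC (log2 ratio 0.16, interval 0.12 to 0.20) and at 993 and 1019 CPM in AEG-1fl/fl (-0.04, interval -0.08 to 0.01). Among the other midlobular genes, Ccnd1, a cyclin of the G1 phase, was at 27.4 and 22.5 CPM in AEG-1DMAC (log2 ratio 0.29, interval 0.01 to 0.55) and at 41.1 and 31.9 CPM in AEG-1fl/fl (0.37, 0.14 to 0.58). Cyp8b1, which makes cholic acid, had ratios of 0.18 and 0.02 with intervals across 0. Mup3, the remaining gene of this list, had a ratio of -0.03 in AEG-1DMAC with the interval below 0, and a ratio above 0 in AEG-1fl/fl. The 4 genes had medians of 0.17 in AEG-1DMAC and 0.03 in AEG-1fl/fl.

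Beyond the genes of the score, 6628 genes averaged 10 CPM or more in each library. A gene is called higher or lower here when its CPM was at least 25% above or at least 20% below that of the remaining spots, with the interval of the ratio on the same side of 1. In AEG-1DMAC 84 genes were higher in hepcidin-rich than in remaining spots (1.27% of the genes) and 195 lower (2.94%). In AEG-1fl/fl 158 were higher (2.38%) and 122 lower (1.84%). Most genes differed little, with a median log2 ratio of 0.01 in either section and the middle of their spread, from the percentile 5 to the percentile 95, reaching from -0.29 to 0.24 in AEG-1DMAC and from -0.25 to 0.28 in AEG-1fl/fl. Few genes were called alike in both sections: 2 higher (0.0302%) and 7 lower (0.106%). The 2 shared higher genes were 2.38% of those higher in AEG-1DMAC, equal to the 2.38% of all genes that were higher in AEG-1fl/fl, and 1.27% of those higher in AEG-1fl/fl. The 7 shared lower genes were 3.59% of those lower in AEG-1DMAC, beside 1.84% of all genes lower in AEG-1fl/fl, and 5.74% of those lower in AEG-1fl/fl. Opposite calls were more numerous, with 5 genes higher in AEG-1DMAC and lower in AEG-1fl/fl (0.0754%) and 31 the other way (0.468%). Across the 1979 genes of at least 50 CPM the Pearson correlation of the 2 log2 ratios was -0.29, a description across genes, which are not independent.

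Zonated genes were among those with opposite ratios. Zone 1 markers had a median log2 ratio of -0.34 in AEG-1DMAC, with 3 of 6 lower, and 0.21 in AEG-1fl/fl, with 0 called but all 6 intervals above 0. Zone 3 markers had a median of 0.12 in AEG-1DMAC, with 0 of 3 called, and -0.84 in AEG-1fl/fl, with 3 of 3 lower. These markers make up the zone index, and the medians restate where the spots lay. Cyp2e1, a pericentral cytochrome P450 that oxidises ethanol, was at 8803 CPM in hepcidin-rich and 7081 CPM in remaining spots of AEG-1DMAC, and at 1655 and 2967 CPM in AEG-1fl/fl. Its log2 ratio was thus 0.31 in AEG-1DMAC and -0.84 in AEG-1fl/fl.

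Landmark genes that did not enter the index gave the split in part. Periportal landmarks had medians of -0.16 (3 of 11 lower) and 0.13 (1 of 11 higher) in AEG-1DMAC and AEG-1fl/fl, and pericentral landmarks had medians of -0.04 (0 of 7 higher, 1 lower) and -0.69 (6 of 7 lower). The pericentral median of AEG-1DMAC thus did not have the sign of its zone 3 markers, although 4 of these genes had intervals above 0, among them Rgn, the calcium-binding regucalcin, with a ratio of 0.27. Cps1, an enzyme of the urea cycle among the periportal landmarks, had ratios of 0.13 and 0.10, with the interval above 0 in both sections. Sds, a periportal serine dehydratase, was at 58.2 and 87.1 CPM in AEG-1DMAC and at 88.9 and 67.6 CPM in AEG-1fl/fl. Hsd17b6, a dehydrogenase of steroids and retinoids, was at 89.6 and 156 CPM in AEG-1DMAC and at 200 and 155 CPM in AEG-1fl/fl. Cyp2c29, Aldh3a2 and Gulo went the other way, with log2 ratios of 0.33, 0.19 and 0.12 in AEG-1DMAC and -0.77, -0.87 and -0.85 in AEG-1fl/fl. Among the pericentral landmarks 1 gene was lower in both sections. It was Slc1a2, a glutamate transporter of the layer next to the central vein. Slc1a2 was at 76.1 and 134 CPM in AEG-1DMAC (log2 ratio -0.81, interval -0.97 to -0.66) and at 20.1 and 62.2 CPM in AEG-1fl/fl (-1.63, -1.94 to -1.34). Oat, an ornithine aminotransferase of the same layer and a marker in the index, had ratios of -0.28, which was not called and turned to 0.24 with Hamp2 alone as the score, and -1.19. Rspo3, a Wnt agonist of central vein endothelium, was among the 7 genes lower in both, beside Fabp4, Baiap2l1, Crebrf, Cyp2c55 and Serpina7.

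**Figure D2:**
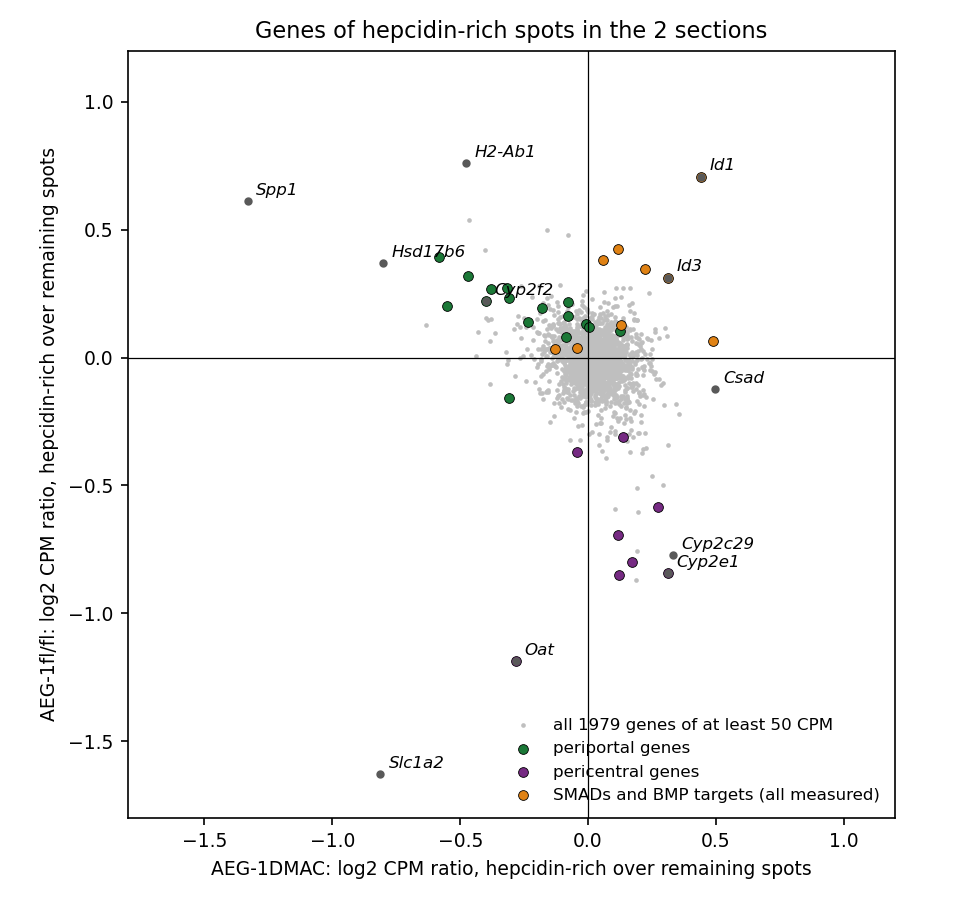
Log2 CPM ratio of hepcidin-rich over remaining spots in AEG-1DMAC (x) and AEG-1fl/fl (y) for 1979 genes averaging 50 CPM or more, with periportal genes in green, pericentral genes in purple and all 9 SMADs and BMP targets in orange. Many zonated genes lie along the falling diagonal, Slc1a2 and Oat lie below 0 in both sections, and Id1 (0.44 and 0.71) and Id3 (0.31 and 0.31) lie apart at the upper right.

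To set position aside, the 10% of spots with the highest score were also taken within each bin of the zone index, a choice made after the data were seen. This gave 210 AEG-1DMAC spots, 156 of which were among the 214 above, and 250 AEG-1fl/fl spots, 199 of which were among the 254. They are called position-matched spots here. Zone 1 and zone 3 markers then had medians of -0.04 and -0.11 in AEG-1DMAC and of -0.01 and -0.18 in AEG-1fl/fl, so position was evened but not wholly. Of 6642 genes, 71 were higher (1.07%) and 159 lower (2.39%) in AEG-1DMAC, and 164 higher (2.47%) and 54 lower (0.813%) in AEG-1fl/fl. In both sections 4 were higher (0.0602%) and 5 lower (0.0753%). The 4 higher genes were Id1, Gabbr2, Bag6 and Bcor, and the 5 lower genes were Slc1a2, Fabp4, Serpina3g, 3830406C13Rik and Serpina7. Id1 was the only gene higher in both sections under both choices of spots. The correlation across 2000 genes was then -0.03.

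Id1 was 1 of the 2 genes called higher in both sections, a share no larger than the background. Id1 and Id3 encode inhibitors of DNA binding that dimerise with basic helix-loop-helix proteins, and both are immediate targets of BMP receptors in hepatocytes. Id1 (chr2:152736251-152737410) was at 24.7 CPM in hepcidin-rich and 18.2 CPM in remaining spots of AEG-1DMAC (log2 ratio 0.44, interval 0.15 to 0.72, from 119 UMIs in hepcidin-rich spots) and at 46.9 and 28.7 CPM in AEG-1fl/fl (0.71, 0.50 to 0.91, from 226 UMIs). Id3 (chr4:136143497-136145755) was at 193 and 156 CPM in AEG-1DMAC (0.31, 0.21 to 0.41) and at 115 and 93.0 CPM in AEG-1fl/fl (0.31, 0.18 to 0.44). Both genes were thus higher in hepcidin-rich spots of each section, although Id3 was just under 25% higher in each. The other gene higher in both sections was Tti1, a cofactor that stabilises kinases of the PIKK family.

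In position-matched spots the log2 ratios were 0.52 and 0.57 for Id1 and 0.23 and 0.30 for Id3. The result turned on which paralog chose the spots: with Hamp2 alone the Id1 ratio was -0.27 in AEG-1DMAC and 0.28 in AEG-1fl/fl. Along bins of the score, taken within bins of the zone index, Id1 was at 16.5 CPM in the lowest and 26.0 CPM in the highest bin of AEG-1DMAC and at 24.0 and 43.3 CPM in AEG-1fl/fl. Id3 was at 135 and 184 CPM in AEG-1DMAC and at 80.2 and 115 CPM in AEG-1fl/fl. The levels between these ends lay on an uneven slope, with the largest step of Id1 at the highest bin in both sections.

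**Figure D3:**
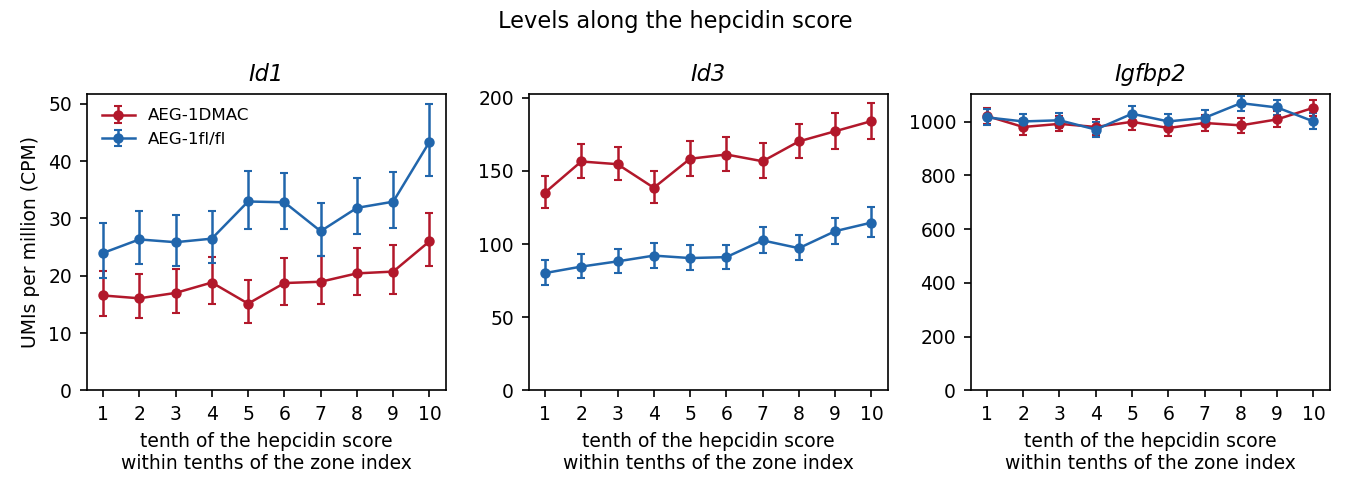
Levels of Id1, Id3 and Igfbp2 (CPM, bars are 95% Poisson intervals for counting error) in 10 bins of the hepcidin score taken within bins of the zone index, in each section. Id1 goes from 16.5 to 26.0 CPM in AEG-1DMAC and from 24.0 to 43.3 CPM in AEG-1fl/fl, and Id3 lies higher in AEG-1DMAC in every bin.

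The whole list of SMADs and BMP targets had 8 of its 9 genes above the minimum for calls. Its median log2 ratio was 0.13 in AEG-1DMAC, with 2 higher and 0 lower, and 0.31 in AEG-1fl/fl, with 3 higher and 0 lower, beside medians of 0.01 over all genes. In position-matched spots the medians were 0.08 and 0.30. With Hamp2 alone as the score they were -0.0050 and 0.063. Besides Id1, the called genes were Smad9 in AEG-1DMAC (29.5 against 21.0 CPM, log2 ratio 0.49), and Id2 (57.0 against 43.8 CPM, 0.38) and Atoh8 (31.1 against 23.2 CPM, 0.42) in AEG-1fl/fl. Smad9 encodes a receptor-activated SMAD and Atoh8 a transcription factor that acts on the Hamp promoter. In the section where they were not called, Smad9 had a ratio of 0.07, Id2 of 0.06 and Atoh8 of 0.12. The signal carriers Smad1, Smad5 and Smad4 had ratios between -0.13 and 0.13 with intervals across 0. Of the 7 genes of this list with a RefSeq promoter available, Smad5, Smad9, Id2 and Id4 held GGCGCC, beside 11.9% of all RefSeq promoters. Smad5 has several RefSeq promoters, and not all of them held these letters. Smad1, Id3 and Atoh8 did not hold them in the window. The 11.9% counts single promoters, so it is not like for like with a count of genes.

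Among BMP ligands and receptors, 1 of 10 genes was higher in AEG-1DMAC and 1 of 10 in AEG-1fl/fl. Bmp6, the main iron-regulated ligand of sinusoidal endothelium, was at 18.7 CPM in hepcidin-rich and 10.6 CPM in remaining spots of AEG-1fl/fl (log2 ratio 0.82, interval 0.48 to 1.15), and at 11.2 and 12.8 CPM in AEG-1DMAC (-0.18, -0.62 to 0.22). Hjv, the BMP co-receptor hemojuvelin, was at 15.8 and 11.8 CPM in AEG-1DMAC (0.42, 0.05 to 0.77) and at 12.4 and 13.7 CPM in AEG-1fl/fl (-0.14, -0.54 to 0.25). Bmp6 was thus called in AEG-1fl/fl and Hjv in AEG-1DMAC, and the difference between the sections was not tested. Bmp2, the other endothelial ligand of hepcidin, had ratios of -0.04 and 0.23, the transferrin receptor 2 gene Tfr2 of 0.09 and -0.01, and Hfe, the hemochromatosis gene, of 0.17 and -0.02.

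The inhibitors of the pathway were not called in either section. Tmprss6, a protease that cleaves hemojuvelin and so lowers hepcidin, was at 364 and 329 CPM in AEG-1DMAC (log2 ratio 0.15, interval 0.07 to 0.22) and at 277 and 271 CPM in AEG-1fl/fl (0.03, -0.05 to 0.11). The inhibitory SMADs, Smad6 and Smad7, which are themselves BMP targets, had ratios of -0.29 and 0.02 in AEG-1DMAC and of 0.28 and 0.15 in AEG-1fl/fl, all with intervals across 0.

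**Figure D4:**
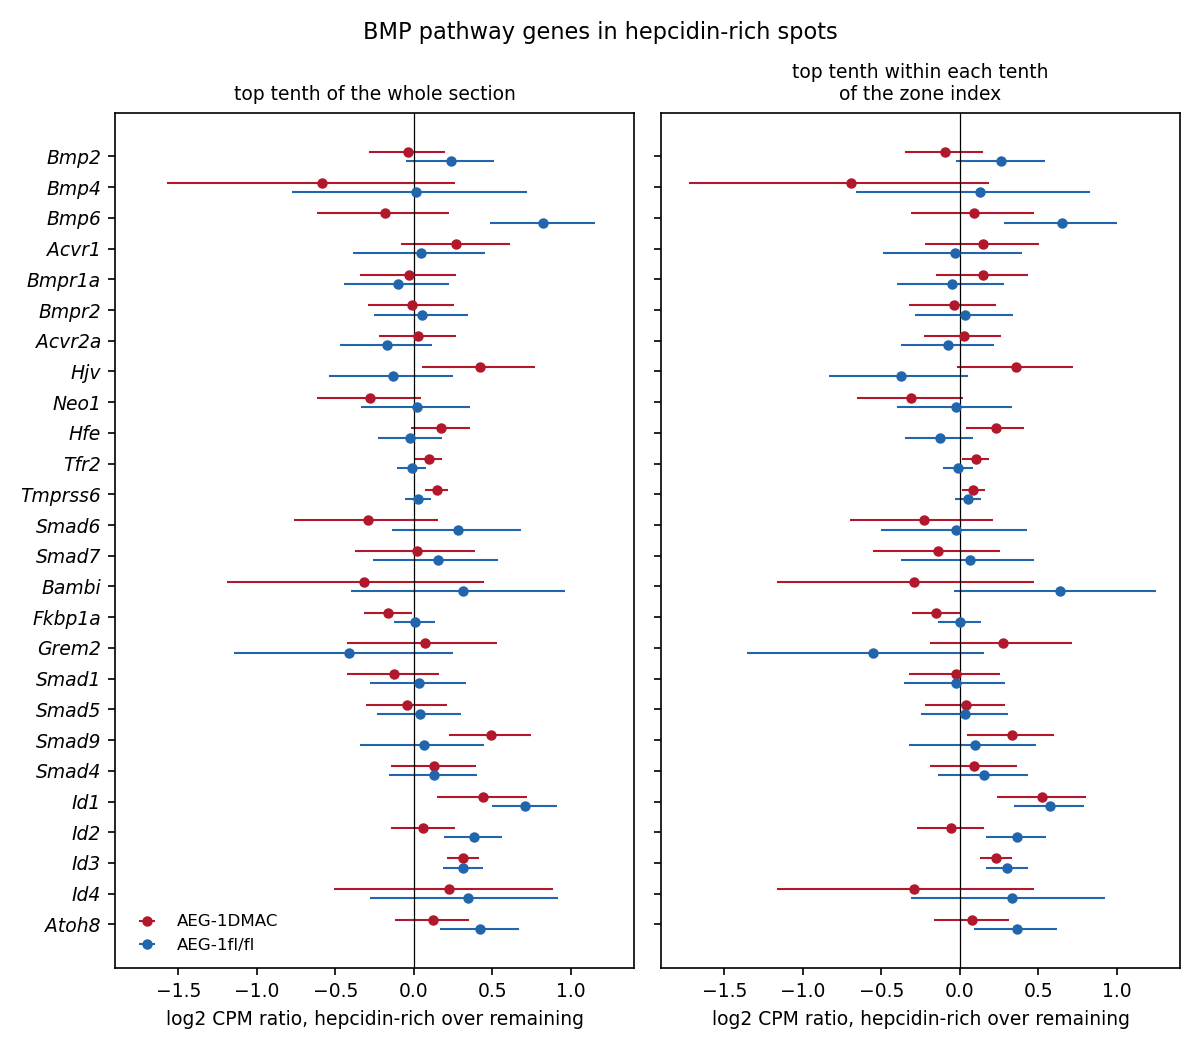
Log2 CPM ratio of hepcidin-rich over remaining spots for genes of the BMP pathway with at least 1 CPM in each set of spots, with 95% counting intervals, for spots chosen over the whole section (left) and within bins of the zone index (right). Id1 and Id3 lie above 0 in both sections and both panels, and Bmp6 lies above 0 in AEG-1fl/fl only, with a log2 ratio of 0.82 on the left.

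Genes of the inflammatory route to hepcidin did not stand out. The list of interleukin 6 and STAT3 genes had medians of -0.03 and -0.02, and 0 of 6 genes were called in either section. Stat3 had ratios of -0.03 and -0.09. Socs3, a feedback target of STAT3, was at 27.8 and 24.2 CPM in AEG-1DMAC (0.20, interval -0.07 to 0.47) and at 8.50 and 8.51 CPM in AEG-1fl/fl. Acute phase proteins had medians of 0.00 and 0.03 with 0 of 15 called in either section. Among other regulators of Hamp, Hnf4a, a master factor of hepatocytes, had ratios of 0.09 (interval 0.02 to 0.16) and 0.14 (0.06 to 0.22), and Cebpa, which binds the Hamp promoter, of 0.08 and 0.05.

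Iron handling genes were close to even between hepcidin-rich and remaining spots. Their medians were -0.04 in AEG-1DMAC and 0.00 in AEG-1fl/fl, and 0 of 17 genes were called in either section. Slc40a1 had ratios of -0.04 and 0.11 with intervals across 0. Trf, which encodes the iron carrier transferrin, had ratios of -0.05 and -0.06, and Fth1, the ferritin heavy chain, of -0.08 and -0.07, small differences with the interval below 0 in both sections. Hp, the haemoglobin scavenger haptoglobin, had ratios of 0.06 and 0.07 with the interval above 0 in both.

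By a fixed rule of size, the genes of at least 50 CPM with intervals on the same side in both sections were ranked by the smaller of the 2 ratios. There were 26 with higher and 15 with lower levels in hepcidin-rich spots. After Id3 the higher end included Cyp51, Tmem30a, Ddi2, Pink1, Apoa5, Scd1, Map1lc3b, Sec14l4, Angptl8 and Cps1, all of them under the size for a call in both sections. Apoa5, an apolipoprotein that aids triglyceride clearance, was at 1913 and 1751 CPM in AEG-1DMAC (log2 ratio 0.13) and at 1375 and 1166 CPM in AEG-1fl/fl (0.24). Scd1, the desaturase that makes oleate, was at 936 and 761 CPM in AEG-1DMAC (0.30) and at 2580 and 2382 CPM in AEG-1fl/fl (0.12), with ratios of 0.21 and 0.20 in position-matched spots. Angptl8, an insulin-induced inhibitor of lipoprotein lipase, had ratios of 0.15 and 0.10, and Cyp51, a sterol demethylase, of 0.17 and 0.21. The lower end held Oat, Apoa4, Ecm1, Cd5l, Cyp2c23, Fth1, Bsg, Gpx1, Tpt1, Uox, Trf and Apob. Of these, Apoa4, the apolipoprotein of intestine and steatotic liver, had ratios of -0.31 and -0.16, and Gpx1, a glutathione peroxidase, of -0.06 and -0.06.

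Of the metabolic lists, that of xenobiotic metabolism was the one with several calls, higher in AEG-1DMAC and lower in AEG-1fl/fl. Fatty acid oxidation had a median of 0.10 in AEG-1DMAC, with 15 of 16 genes above 0. In AEG-1fl/fl its median was -0.10, with 2 of 16 above 0, beside medians of 0.01 over all genes in either section. Of these genes 0 were called in either section. In position-matched spots the medians of fatty acid oxidation were 0.06 and -0.02. Xenobiotic metabolism had medians of 0.17 (2 of 9 higher) and -0.30 (3 of 9 lower). In position-matched spots its medians were 0.04 and -0.11, with 0 of 9 genes called in either section. The members of this list with opposite calls were Cyp2c29 and Ahr. Ahr, the aryl hydrocarbon receptor, was at 35.3 and 27.3 CPM in AEG-1DMAC and at 14.3 and 21.9 CPM in AEG-1fl/fl. Bile acid genes had medians of 0.06 and -0.01, but Cyp7a1, the rate-limiting enzyme of bile acid synthesis, was at 119 and 88.4 CPM in AEG-1DMAC and at 32.1 and 50.4 CPM in AEG-1fl/fl. In position-matched spots the Cyp7a1 ratios were 0.21 and -0.05. Lipogenesis (medians 0.05 and 0.05) and cholesterol synthesis (0.02 and 0.06) had 0 genes lower in either section, and 1 gene of cholesterol synthesis was higher in AEG-1fl/fl. The medians of hepatocyte, urea cycle, gluconeogenesis, clock and endoplasmic reticulum stress genes lay between -0.02 and 0.13. Lymphocyte markers, of which 0 reached the minimum for calls, had medians of -0.22 and 0.18.

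Markers of portal tract cells differed most between the sections. Smooth muscle markers summed to 7.48 CPM in hepcidin-rich and 28.9 CPM in remaining spots of AEG-1DMAC, and to 42.1 and 23.5 CPM in AEG-1fl/fl. Tagln, an actin-binding protein of smooth muscle, was at 6.03 and 16.1 CPM in AEG-1DMAC and at 26.7 and 16.7 CPM in AEG-1fl/fl. Cholangiocyte markers, those of bile duct cells, summed to 43.0 and 91.1 CPM in AEG-1DMAC and to 118 and 83.9 CPM in AEG-1fl/fl. Few of these markers reached the minimum for calls: of 1 smooth muscle gene, Tagln, and 2 cholangiocyte genes, Tagln and Spp1 were called, lower in AEG-1DMAC and higher in AEG-1fl/fl. Sox9, the other cholangiocyte gene, had ratios of -0.11 and 0.17 with intervals across 0. Most of the cholangiocyte sum was Spp1, osteopontin, which was at 28.5 and 71.7 CPM in AEG-1DMAC (log2 ratio -1.33, interval -1.59 to -1.08) and at 82.7 and 54.2 CPM in AEG-1fl/fl (0.61, 0.45 to 0.76). The keratin gene Krt19 gave 0 UMIs in hepcidin-rich spots of AEG-1DMAC. The split persisted in position-matched spots, with smooth muscle medians of -2.22 and 0.94 and Spp1 ratios of -1.16 and 0.40. With Hamp2 alone as the score the direction turned in AEG-1fl/fl, where the smooth muscle median was -0.14 and the Spp1 ratio -0.38. The part of these cells in the other results was not tested.

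The class II genes named for their difference between the sections belong to no list used here. H2-Ab1, a class II chain of antigen-presenting cells, was at 79.0 and 110 CPM in AEG-1DMAC (log2 ratio -0.48) and at 71.9 and 42.5 CPM in AEG-1fl/fl (0.76). H2-Aa, its partner chain, had ratios of -0.46 and 0.54, and in position-matched spots H2-Ab1 had ratios of -0.45 and 0.70. Erythroid markers summed to 959 and 1023 CPM in AEG-1DMAC, with 0 of 4 called and a median that turned from -0.12 to 0.19 with the top 5% of spots, and to 1580 and 1174 CPM in AEG-1fl/fl, where the 3 globin genes were higher and Alas2, the erythroid heme enzyme, had a ratio of -0.03. Globin genes are a multigene family and their split is uncertain.

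Cells of the sinusoid differed less. Kupffer cell markers, those of the resident macrophages that the Cre line targets, had medians of -0.15 in AEG-1DMAC, with 1 of 9 lower, and -0.01 in AEG-1fl/fl, with 0 of 9 called. The called gene was Marco, a scavenger receptor, at 8.73 and 14.5 CPM. In position-matched spots the Kupffer cell medians were alike, -0.12 in AEG-1DMAC and -0.11 in AEG-1fl/fl. There 3 and 5 of 9 genes had intervals below 0, and 0 had intervals above 0 in either section. Clec4f, a receptor specific to Kupffer cells, had ratios of 0.00 and -0.06, and Cd5l, a secreted macrophage protein, of -0.16 and -0.13. Sinusoidal endothelium markers had medians of 0.00 and -0.09 with 0 of 7 called. Stellate cell markers had medians of -0.18 and -0.06 with 1 of 6 lower in each section, Colec11, a secreted collectin, in AEG-1DMAC (log2 ratio -0.38) and Lrat, which stores retinol as ester, in AEG-1fl/fl (-0.61).

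Between genotypes, the hepcidin-rich spots were compared with each other and the remaining spots with each other. Over all genes the median log2 ratio of AEG-1DMAC to AEG-1fl/fl was 0.15 in either set, so a ratio near this value is no difference from the bulk of genes. Of 6941 genes tested in hepcidin-rich spots, 131 were higher in AEG-1DMAC by 2-fold or more (1.89%) and 92 were lower by as much (1.33%). The balance moved with the scaling: with TMM factors 107 were higher and 115 lower, with median-of-ratios factors 107 and 116, and with the 50 most abundant genes left out of the total 116 and 263. Of 6926 genes tested in the remaining spots 88 were higher and 34 lower, and 64 and 33 of the calls were the same genes. Of the 223 genes called in hepcidin-rich spots, 97 (43.5%) were thus called the same way in the remaining spots. A ratio on the same side of 0 there was held by 215 (96.4%), beside 79.97% of all 6941 genes. Depth differed: 10 CPM stood for 48.1 and 48.2 UMIs in hepcidin-rich spots and for 406 and 455 UMIs in remaining spots. Counting error was thus larger in hepcidin-rich spots, and the numbers of calls are not like for like.

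The highest ratios were found in both sets of spots. Gadd45g, a stress-response gene, was at 213 CPM in hepcidin-rich spots of AEG-1DMAC and 11.4 CPM in those of AEG-1fl/fl, a log2 ratio of 4.22, against 4.48 in the remaining spots. Alas1, which starts heme synthesis in hepatocytes, was at 325 and 20.3 CPM (3.9996 against 3.86). Onecut1, a hepatocyte transcription factor, had ratios of 3.53 and 3.61, Phlda1, a gene of the immediate response to growth factors, of 3.29 and 3.08, Foxq1, a forkhead factor, of 2.84 and 2.94, and Mup12, of the major urinary protein family whose near-identical copies make its level uncertain, of 2.72 and 2.10. These 6 genes were higher in AEG-1DMAC in both sets of spots.

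At the other end stood Tff3, a trefoil factor, at 6.03 CPM in hepcidin-rich spots of AEG-1DMAC and 451 CPM in those of AEG-1fl/fl, a log2 ratio of -6.23 against -5.10 in the remaining spots. Lpl, lipoprotein lipase, had ratios of -2.15 and -1.89, and Depp1, a FoxO target, of -1.9998 and -2.19. For Aldh1b1, a mitochondrial aldehyde dehydrogenase, the ratio was -2.20 in hepcidin-rich and -0.79 in remaining spots, and for Slc3a1, an amino acid transporter subunit, -2.14 and -1.40. Both of these had larger ratios in hepcidin-rich spots, and in those of the middle part of the zone index alone, a choice made after the data were seen, they were -1.36 and -1.71.

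The 2 sets of hepcidin-rich spots also differed in their place on the zone index, and zonated genes differed with it. Zone 3 markers had a median genotype ratio of 1.79 in hepcidin-rich and 0.98 in remaining spots, and Cyp2e1 of 2.41 and 1.26. Clock genes also differed between the 2 sections, with a median genotype ratio of 0.90 in hepcidin-rich and 1.33 in remaining spots. In hepcidin-rich spots 7 of 11 clock genes had a ratio above 0, and of 7 above the minimum 3 were called higher and 0 lower. Of the 8 SMADs and BMP targets above the minimum, 1 was called between genotypes in hepcidin-rich spots, Smad9, at 29.5 CPM in AEG-1DMAC and 12.6 CPM in AEG-1fl/fl (log2 ratio 1.22, and 0.80 in remaining spots). Id1 was at 24.7 against 46.9 CPM in hepcidin-rich spots (-0.92, and -0.66 in remaining spots) and Id3 at 193 against 115 CPM (0.74, and 0.74 in remaining spots). Neither Id1 nor Id3 reached 2-fold, and their ratios had opposite signs in both sets of spots.

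**Figure D5:**
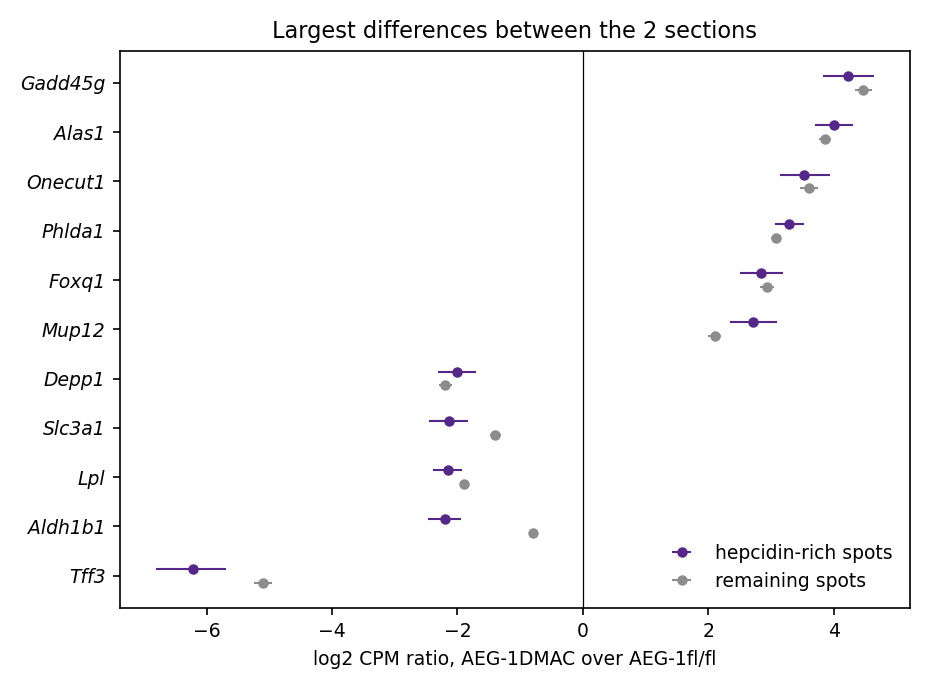
Log2 CPM ratio of AEG-1DMAC over AEG-1fl/fl in hepcidin-rich spots (purple) and remaining spots (grey) for 11 genes from the 6 highest and 6 lowest ratios among genes of at least 50 CPM in hepcidin-rich spots, with 95% counting intervals. The 2 sets lie close together for most genes, and Aldh1b1 has -2.20 against -0.79.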

How the data were processed

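Spatial transcriptomics was done by the authors on 1 liver section of each genotype with the 10x Visium probe assay for fixed tissue. Per the submitters' processing notes, Space Ranger 2.0.1 with mm10 and Seurat 4.3.0 were used, and the deposited files hold raw counts of UMIs for 19465 genes per spot under tissue, with no normalisation. Because probes differ in efficiency, levels were compared gene by gene and not between genes.

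The matrices held 2149 (AEG-1DMAC) and 2543 (AEG-1fl/fl) spots. The spot numbers that the study gives after filtering equal these deposited ones, and its stated limits (at most 50000 UMIs, 100 to 7000 genes) removed 9 and 3 more here. The members and gene lists were chosen with earlier results of these data known. UMIs were summed over hepcidin-rich and over remaining spots and divided by their total to give CPM. Ratios of CPM carry exact conditional binomial 95% intervals, single levels exact Poisson intervals and shares exact Clopper-Pearson intervals. With 1 library per genotype no test was run. Genes averaging 10 CPM or more were called at 25% above or 20% below the remaining spots, or at 2-fold between genotypes, with the interval on the same side. Medians of the 30 lists use genes of at least 1 CPM.

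Named genes of at least 50 CPM were the 12 highest and 12 lowest with intervals on the same side in both libraries, ranked by the ratio nearer to 0, the 6 highest and 6 lowest between genotypes, the 4 highest and 4 lowest differences between libraries, members of the lists, Mtdh and Lyz2, of which 2 are not reported here. Other named genes, such as those called in both sections, were named after their values were seen. The zone index is the mean scaled log-normalised zone 3 markers minus that of the zone 1 markers. Ensembl identifiers were matched to GENCODE M21 (GRCm38) for positions. Glul, Cyp2a5, Ftl1, Saa1, Saa2, Elovl6, Fdps, Cyp2b10, Cyp2c37, Cyp2c50, Ciart, Ddit3 and Hba-a1 of the lists were not analysed here, nor were spot positions. Doublets do not apply to spots, and no deconvolution was done. Python 3.11.15 with NumPy 2.4.6, SciPy 1.17.1 and pandas 2.3.3, and edgeR 4.0.16 in R 4.3.3 for TMM factors were used. The ratio and its interval were checked on counts simulated as independent draws, which leaves out the spread among spots. The alternatives were 17 planned settings and 3 chosen after seeing the data.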

Additional observations from a re-analysis of the deposited data

Results flagged for a closer look

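Among the gene list members called in opposite directions in the 2 sections and the genes with the largest differences between sections, 12 had the interval of hepcidin-rich over remaining spots on one side of 0 in AEG-1DMAC and on the other side in AEG-1fl/fl. With 1 section of each genotype these differences were not tested. The log2 ratio of AEG-1DMAC minus that of AEG-1fl/fl was positive for the pericentral genes Cyp2e1 (1.16), Cyp2c29 (1.10), Cyp7a1 (1.08), Aldh3a2 (1.06), Ahr (0.98) and Gulo (0.98). It was negative for the periportal genes Hsd17b6 (-1.17) and Sds (-0.98), for the bile duct gene Spp1 (-1.94), for the smooth muscle gene Tagln (-2.09) and for the class II genes H2-Ab1 (-1.24) and H2-Aa (-1.001). In position-matched spots the Cyp2e1 ratios were 0.09 in AEG-1DMAC and -0.18 in AEG-1fl/fl, so that the gap was smaller there. Those of Spp1 were -1.16 and 0.40 there, and those of H2-Ab1 -0.45 and 0.70.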

How the results depend on the processing

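The count of a single spot limits the choice of spots, since the 4 spots just inside and outside the thresholds held 7 to 26 hepcidin UMIs, and the single section of each genotype limits everything else. No paired analysis was possible because each genotype has 1 section. The share of hepcidin-rich spots in the middle part of the zone index was 41.6% to 47.7% in AEG-1DMAC and 27.3% to 38.6% in AEG-1fl/fl under the alternatives, the last with the score from Hamp2 alone. The Id1 ratio was 0.34 to 0.56 in AEG-1DMAC and 0.53 to 1.11 in AEG-1fl/fl, except with the score from Hamp2 alone (-0.27 and 0.28). The Id3 ratio was above 0 under all alternatives run, 0.18 to 0.33 and 0.06 to 0.53. Of the list medians over all alternatives 13 of 690 were counted as reversed and of the gene ratios 27 of 990. These counts leave out some changes of sign where the main interval lay across 0. Of the 11 genotype ratios 0 reversed. The cause of a change was not tested beyond what an alternative's own construction shows.

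Genes higher in both sections (2) became 15 with the top 5% of spots, 5 as a mean over spots, 4 with position-matched spots, 1 with the top 20%, 1 with 1 threshold for both libraries, 0 at a minimum of 50 CPM and 0 at 1.5-fold. Genes lower in both (7) became 13 at a minimum of 1 CPM, 4 within bins of UMIs, 4 with remaining spots weighted to the zone index, 3 with 1 threshold, 2 at 1.5-fold and 0 at 50 CPM. Genes higher in AEG-1DMAC (131) became 543 at 1.5-fold, 271 at 1 CPM, 209 in the middle part of the zone index and 58 at 50 CPM. Genes lower in AEG-1DMAC (92) became 460 at 1 CPM, 335 with 1 threshold, which left 33 AEG-1fl/fl spots, 263 without the 50 most abundant genes, 260 at 1.5-fold, 165 with the top 5% and 23 at 50 CPM.

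For AEG-1DMAC the Igfbp2 ratio was 0.12 with 1 threshold, 0.10 with the score from Hamp alone, 0.10 with weighted remaining spots and 0.083 with position-matched spots. For AEG-1fl/fl it was -0.086 with the top 5% and 0.071 with Hamp2 alone. The SMAD and BMP target median of AEG-1fl/fl was 0.53 with 1 threshold, 0.13 with the top 20% and 0.063 with Hamp2 alone. That of AEG-1DMAC was -0.0050 with Hamp2 alone. The periportal landmark median of AEG-1DMAC was -0.38 with Hamp2 alone, -0.22 with the top 5%, -0.20 within bins of UMIs, -0.075 with Hamp alone, -0.029 with weighted and -0.012 with position-matched spots, and that of AEG-1fl/fl was 0.027 with Hamp2 alone, 0.011 with weighted and -0.00049 with position-matched spots. The pericentral landmark median of AEG-1DMAC was 0.28 with Hamp2 alone, -0.19 with Hamp alone and -0.14 with weighted spots, and that of AEG-1fl/fl -0.10 with weighted spots.

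Directions counted as reversed with Hamp2 alone were, in AEG-1DMAC, Id1 (-0.27), Cyp51 (-0.25), Tmem30a (-0.042), Ddi2 (-0.026), Apoa5 (-0.0022), Oat (0.24), Ecm1 (0.13), Bsg (0.078), Fth1 (0.061), Tpt1 (0.0064), Cyp2c23 (0.0040) and the medians of midlobular genes (-0.014) and stellate cell markers (0.064). In AEG-1fl/fl they were Spp1 (-0.38), Hsd17b6 (-0.078), Tmem30a (-0.038), Map1lc3b (-0.011), Ecm1 (0.026) and the smooth muscle median (-0.14). Some signs changed with Hamp2 alone without being counted as reversed. Among them were the AEG-1DMAC medians of SMADs and BMP targets (-0.0050) and pericentral landmarks (0.28), and Igfbp2 in AEG-1fl/fl (0.071). The main intervals of these 3 held values of both signs. With Hamp alone Gulo (-0.033) and the zone 3 median (-0.049) reversed in AEG-1DMAC, and with the top 5% the erythroid median (0.19). With 1 threshold Ecm1 (0.0022) and Apob (0.00060) reversed in AEG-1DMAC and Apoa4 (0.23) and the acute phase median (-0.0080) in AEG-1fl/fl. With position-matched and with weighted spots, in this order, Aldh3a2 (-0.052, -0.043), Gulo (-0.044, -0.077), Uox (0.023, 0.027) and the zone 3 median (-0.11, -0.088) reversed in AEG-1DMAC, and the zone 1 median (-0.013, -0.013) and the acute phase median (-0.013, -0.0070) in AEG-1fl/fl, with Tpt1 (0.016) in weighted spots alone.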
